A study of Homo sapiens with 12 samples.

Results

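The genes described here encode the constitutive proteasome: the subunits of the core particle and of the regulatory particle, and 3 chaperones that help to assemble the base of the regulatory particle. They were taken from the deposited table by name, as every gene called PSMA, PSMB, PSMC or PSMD followed only by digits, without PSMB5 to PSMB10, which carry the proteolytic activity in the standard and the immune form of the enzyme. The rule used no measured value and found 33 genes among the 19836 in the table. Of these, 13 belong to the core (8 to its alpha ring and 5 to its beta ring), 9 to the base (6 ATPases and 3 subunits that are not ATPases), 8 to the lid, and 3 are assembly chaperones.

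The study measured RNA in HEK293 cells, a transformed human embryonic kidney line, by sequencing of poly(A)-selected RNA. Cells were transduced on day 1 and harvested on day 4, and 2 of the 4 groups also received interferon gamma (IFN-gamma) on day 2. The 4 groups of 3 libraries each were A197-270 with IFN-gamma (replicates 10 to 12), A197-270 without it (replicates 4 to 6), vector with IFN-gamma (replicates 7 to 9) and vector without it (replicates 1 to 3). The labels call the first construct A197-270 tandem and the other a Flag vector, and the sources used here leave out what A197-270 encodes. No group lacks a construct, so every group was transduced. The IFN-gamma dose, the promoter driving the construct and the share of cells that carried it are not given either. In bulk RNA a change in every cell cannot be told apart from a larger change in some of the cells.

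The proteasome degrades proteins that carry ubiquitin chains. Its core is a barrel of alpha rings outside and beta rings inside, with the proteolytic sites on the inner wall. A regulatory particle caps the barrel: the ATPases of the base unfold the substrate and open the gate in the alpha ring, the other base subunits hold ubiquitin receptors, and the lid carries the enzyme that removes ubiquitin. In human cells the transcription factor NFE2L1 raises many subunit genes together when proteasome activity is short. IFN-gamma is best known for replacing the catalytic beta subunits by immunoproteasome subunits (PSMB8, PSMB9 and PSMB10) and for raising the PSME1 and PSME2 activator, which is a different cap on the same barrel.

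Depth was 31417431 to 70746868 gene-assigned reads per library, and the members took 0.372% to 0.406% of them. Each tested member had 1031 to 17792 reads in each library. The 5 HEK293 markers NEFL, NEFM, INA, VIM and PAX2 were present in all 12 libraries. Their summed normalized counts were 58161 to 60761 in A197-270 cells with IFN-gamma, 64205 to 65946 in A197-270 cells, 42562 to 45408 in vector cells with IFN-gamma and 51692 to 53598 in vector cells. Of 8 markers of other cells, PTPRC, CD3E and KRT5 were at 0 in at least 11 libraries, and COL1A1 and EPCAM were detected in all of them. The summed level of these 8 was 1404 to 1578 in A197-270 cells with IFN-gamma, 1456 to 1603 in A197-270 cells, 1651 to 1931 in vector cells with IFN-gamma and 1452 to 1652 in vector cells. IRF1, a direct IFN-gamma target, had 4033 to 4744 normalized counts in the libraries labelled with IFN-gamma, against 226 to 408 in those without. GBP1, another such target, had 8428, 7767 and 7369.8 in A197-270 cells with IFN-gamma, 19.7, 29.8 and 18.9 in A197-270 cells, 10789, 10021 and 9769.8 in vector cells with IFN-gamma and 189, 165 and 155 in vector cells. The mitochondrially encoded genes took 0.587% ± 0.118 of reads in A197-270 cells with IFN-gamma and 0.648% ± 0.136 in A197-270 cells, against 0.438% ± 0.035 in vector cells with IFN-gamma and 0.408% ± 0.065 in vector cells (SD, n = 3 each). These shares and the HEK293 marker sums moved with the construct, and the marker sums were also lower with IFN-gamma with either construct. The markers did not all move together. Without IFN-gamma, VIM had a mean of 42271 normalized counts in A197-270 cells and 33869 in vector cells. The means were 1067 and 1048 for INA and 101 and 135 for PAX2 in the same groups. The part of these differences in the results on A197-270 and on IFN-gamma was not tested.

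Of the 33 genes, 30 had a mean of at least 10 normalized counts and were tested, with limma on log2(normalized count + 1) over all 14049 genes that passed the same minimum. The 3 others were PSMA8, the testis form of an alpha subunit, PSMB11, the thymus form of a beta subunit, and PSMD5, one of the assembly chaperones. PSMA8 was listed at 0 except for 2 and 9 reads in A197-270 replicates 4 and 5, and PSMB11 at 0 in all 12 libraries. PSMD5 was listed at 0 in 9 libraries and had 3 and 8 reads in vector replicates 1 and 3 and 3 reads in vector with IFN-gamma replicate 7. A count of 0 allows up to 3 reads in a library, for counting error only, and no fold change is given for these genes. Below, a member is called when its p adjusted over all tested genes by the Benjamini-Hochberg method is under 0.05, and its log2 fold change is on the log2(normalized count + 1) scale. The labels do not say whether replicates were separate cultures, so these p-values measure only the spread between these libraries, which may be technical.

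The promoters of 5 members are printed because these genes carry the patterns described below. PSMA3 and PSMA5 were higher with IFN-gamma with either construct, and PSMB4 and PSMC1 were higher with A197-270 with and without IFN-gamma. PSMD1 stands for the 3 non-ATPase base members found by the naming rule, which were all called lower with IFN-gamma in vector cells. The regulatory particle subunit ADRM1, which that rule leaves out, passed in no comparison. These 5 promoters were picked after the values were seen. Each is the RefSeq window of 250 bases before to 50 after the annotated start (GRCh38.p14), read 5′ to 3′ on the gene's strand, and capitals mark the motif matches found in it. The windows are chr14:58244593-58244892 (plus strand), chr1:109426399-109426698 (minus), chr1:151399323-151399622 (plus), chr14:90256303-90256602 (plus) and chr2:231056617-231056916 (plus).
PSMA3: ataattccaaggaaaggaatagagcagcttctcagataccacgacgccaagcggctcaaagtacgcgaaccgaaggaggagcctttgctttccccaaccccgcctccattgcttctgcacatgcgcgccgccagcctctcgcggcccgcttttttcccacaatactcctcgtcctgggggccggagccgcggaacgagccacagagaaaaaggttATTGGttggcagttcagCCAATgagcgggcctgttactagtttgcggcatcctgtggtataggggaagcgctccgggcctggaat
PSMA5: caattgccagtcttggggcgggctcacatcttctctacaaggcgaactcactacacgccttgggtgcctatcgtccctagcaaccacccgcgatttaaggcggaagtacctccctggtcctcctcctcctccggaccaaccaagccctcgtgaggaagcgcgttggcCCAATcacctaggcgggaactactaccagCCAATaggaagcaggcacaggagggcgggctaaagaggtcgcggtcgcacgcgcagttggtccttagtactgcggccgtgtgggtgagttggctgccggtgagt
PSMB4: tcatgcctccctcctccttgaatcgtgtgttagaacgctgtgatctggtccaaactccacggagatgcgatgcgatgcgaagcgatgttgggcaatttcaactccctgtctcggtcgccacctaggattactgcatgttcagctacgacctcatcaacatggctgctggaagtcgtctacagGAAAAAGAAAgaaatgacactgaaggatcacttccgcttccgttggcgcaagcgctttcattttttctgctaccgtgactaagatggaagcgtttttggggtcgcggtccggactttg
PSMC1: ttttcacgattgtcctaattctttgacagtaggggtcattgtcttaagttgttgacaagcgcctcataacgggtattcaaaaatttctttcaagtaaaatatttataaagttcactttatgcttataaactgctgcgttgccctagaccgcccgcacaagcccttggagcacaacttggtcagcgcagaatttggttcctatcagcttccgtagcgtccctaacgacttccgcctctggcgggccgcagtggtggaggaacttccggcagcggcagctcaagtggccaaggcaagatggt
PSMD1: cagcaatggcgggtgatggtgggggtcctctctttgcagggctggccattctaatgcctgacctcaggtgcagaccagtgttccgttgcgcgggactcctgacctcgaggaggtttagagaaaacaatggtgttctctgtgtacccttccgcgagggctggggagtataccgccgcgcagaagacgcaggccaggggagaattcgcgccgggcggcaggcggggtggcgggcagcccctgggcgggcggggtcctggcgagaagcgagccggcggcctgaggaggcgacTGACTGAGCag
PSMA3 and PSMA5 each held 2 CCAAT boxes, those of PSMA3 lying 35 and 18 bases before the start and those of PSMA5 83 and 54 bases before it. PSMB4 held 1 match to the core of the interferon-stimulated response element, 68 bases before the start. PSMD1 held 1 match to TGACNNNGC, the core of the antioxidant response element that NFE2L1 and NFE2L2 bind, 39 bases after the start. PSMC1 held no match to any motif searched, which says only that these letters are not in this window.

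Over the family, RefSeq gave 35 promoter windows for 30 of the 33 members, some with several annotated starts. TGACNNNGC, on either strand, was in 9 of these 35 windows (25.7%), against 13.4% of all 35116 windows of the same length. CCAAT was in 16 (45.7%), against 34.6% of all windows. TTCNNNGAA, the core of the gamma-activated site, was in 5 (14.3%) against 7.66%, and the core of the interferon-stimulated response element in 2 (5.71%) against 3.57%. The heat shock element was in 0 of the 35 windows and in 0.49% of all. None of the 4 members that were higher with A197-270 in both comparisons held TGACNNNGC in its window. These matches describe the sequence only. The searches for both interferon elements were added after the values were seen.

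The rows of 2 alpha ring genes fell where those of overlapping read-through genes rose, so their own rows are not relied on alone. How reads were assigned to overlapping genes is not given, and a split of reads between them was not tested. In GENCODE 29 the exons of PSMA2 (ENSG00000106588.10, chromosome 7, 42916857 to 42932223, minus strand) share 781 bases with AC010132.3, a protein-coding read-through gene on the same strand. AC010132.3 was listed at 0, 0 and 4051 normalized counts in A197-270 cells with IFN-gamma, 0, 2675 and 4255 in A197-270 cells, 0, 1052 and 3185 in vector cells with IFN-gamma and 0, 0 and 0 in vector cells. PSMA2 itself had 7241, 7161 and 2775 in A197-270 cells with IFN-gamma, 6662, 4059 and 2568 in A197-270 cells, 6089, 6032 and 3853 in vector cells with IFN-gamma and 6389, 6564 and 6071 in vector cells. PSMA2 was at 4059 or less in the libraries where AC010132.3 was at 2675 or more, and the sum of both genes lay between 6071 and 7241 in all 12 libraries. In vector cells with IFN-gamma replicate 8, with 1052 for AC010132.3, PSMA2 was at 6032, near the 6089 of replicate 7. The spread of PSMA2 between libraries of a group was 0.56 (pooled SD, log2) for its own row and 0.07 for the sum.

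PSMA6 (ENSG00000100902.10, chromosome 14, 35278633 to 35317493, plus strand) shares 919 exon bases with the read-through gene listed as AL121594.3. In vector cells with IFN-gamma replicate 9, AL121594.3 had 3627 normalized counts and PSMA6 3535, while in the other 11 libraries AL121594.3 had 0 to 241. The sum of both was 6058, 6026 and 5345 in A197-270 cells with IFN-gamma and 4714, 4608 and 4487 in A197-270 cells. It was 5905, 6418 and 7162 in vector cells with IFN-gamma and 4795, 4821 and 4683 in vector cells. On the sum, all libraries with IFN-gamma stood above those without it, which the row of PSMA6 alone does not show. The pooled SD of PSMA6 fell to 0.09 on the sum, against 0.23 for its own row. The other 28 tested members had pooled SDs of 0.019 to 0.09 (median 0.051), against a median of 0.086 over all 14049 tested genes.

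**Figure D1:**
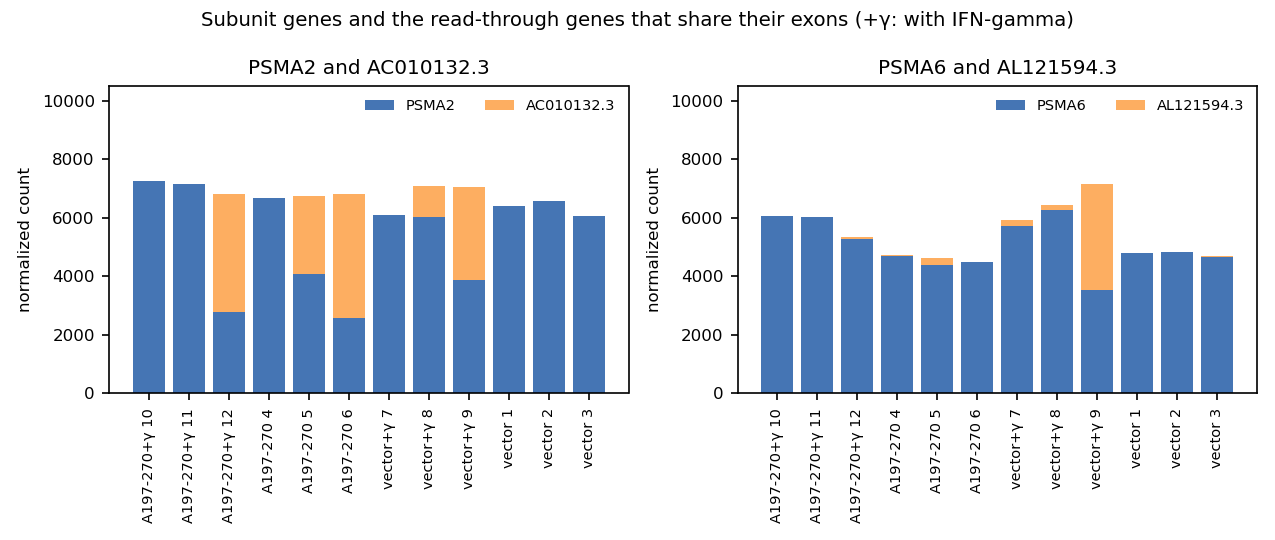
Normalized counts of PSMA2 with AC010132.3 (left) and of PSMA6 with AL121594.3 (right) in each of the 12 libraries, stacked, with groups from left to right A197-270 + IFN-gamma, A197-270, vector + IFN-gamma and vector. The stacked height for PSMA2 stays between 6071 and 7241 while its own part drops to 2568 in A197-270 replicate 6, and the PSMA6 part drops to 3535 in vector + IFN-gamma replicate 9.

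The first comparison asks which subunit genes differ between A197-270 and vector cells that received no IFN-gamma. Of the 30 tested members, 4 were higher (PSMB2, PSMB4, PSMC1 and PSMD2), 2 were lower (PSMA3 and PSMD7) and 24 did not pass the test. Over all tested genes, 12.5% were called higher and 12.6% lower in this comparison (25.1% in either direction), so the members' shares lie near the background. The median log2 fold change of the members was 0.00, as was that of all tested genes. By class, 2 of 11 core members were higher and 1 lower, 2 of 9 base members were higher and 0 lower, and 0 of 8 lid members were higher and 1 lower. No member changed 2-fold here or in any other comparison.

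In the alpha ring, PSMA3 (ENSG00000100567.12, chromosome 14, 58244831 to 58272012, plus strand), a subunit of that ring, was the member called lower. It had 4048, 4204 and 4059 normalized counts in A197-270 cells, against 4842, 4933 and 4892 in vector cells. The groups did not overlap, and the log2 fold change was -0.25 ± 0.05 (SE, adjusted p = 0.00248 by limma). The 4 tested beta ring members are structural subunits without a proteolytic site, and 2 of them were higher. PSMB4 (ENSG00000159377.10, chromosome 1, 151399534 to 151401944, plus strand) had 6609, 6291 and 6681 normalized counts in A197-270 cells, against 5219.6, 5493 and 5025 in vector cells, a log2 fold change of 0.32 ± 0.04 (SE, adjusted p = 7.46e-05 by limma). Every A197-270 library was above every vector library, the largest rise among the members in this comparison. PSMB2 (ENSG00000126067.11, chromosome 1, 35599544 to 35641844, minus strand) had 6597, 6703 and 6777 in A197-270 cells, against 6111, 6059 and 6141 in vector cells, with a log2 fold change of 0.13 ± 0.03 (SE, adjusted p = 0.0121 by limma). With the libraries scaled to equal totals PSMB2 lost its call (0.08 with an adjusted p of 0.0789).

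In the base, 1 of 6 ATPases and 1 of 3 other subunits were higher. PSMC1 (ENSG00000100764.13, chromosome 14, 90256495 to 90275429, plus strand) is an ATPase whose tail inserts into the alpha ring and opens its gate. It had 4164, 4275 and 4250.1 normalized counts in A197-270 cells, against 3745, 3753 and 3762 in vector cells, and a log2 fold change of 0.17 ± 0.03 (SE, adjusted p = 0.00161 by limma). All 3 A197-270 libraries were above the vector libraries, and PSMC1 had the smallest spread of the members (pooled SD 0.019, log2). NRDE2 on the opposite strand covers 75.8% of the exon bases of PSMC1, and the sources used here do not give whether reads were counted by strand. NRDE2 had 1883, 1749.9 and 1808 normalized counts in A197-270 cells, against 1782, 1829 and 1905 in vector cells, so the groups overlapped for that gene.

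PSMD2 (ENSG00000175166.16, chromosome 3, 184298709 to 184309054, plus strand) is the large scaffold subunit of the base that docks ubiquitin receptors and shuttle proteins. It had 7771, 7295 and 7346 normalized counts in A197-270 cells, against 6397, 6253 and 5918 in vector cells, and a log2 fold change of 0.27 ± 0.04 (SE, adjusted p = 0.000191 by limma). The groups were separate. In the lid, PSMD7 (ENSG00000103035.10, chromosome 16, 74296775 to 74306288, plus strand), the inactive partner of the deubiquitinating subunit, was lower. PSMD7 had 4169.6, 4402 and 4303 in A197-270 cells, against 4810.2, 4625 and 4876 in vector cells, a log2 fold change of -0.15 ± 0.04 (SE, adjusted p = 0.00909 by limma). Its groups did not overlap. All 6 calls of this comparison held in each of the 6 fits that left out 1 of its libraries.

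The second comparison sets A197-270 against vector cells that both received IFN-gamma. Here 9 members were higher (PSMA1, PSMB1, PSMB2, PSMB4, PSMC1, PSMD1, PSMD2, PSMD4 and PSMD13), 2 were lower (PSMC4 and PSMD11) and 19 did not pass. Over all tested genes, 18.6% were called higher and 16.2% lower (34.8% in either direction). The members' median log2 fold change was 0.08, against -0.01 for all tested genes. The higher calls fell on 3 of 4 beta ring members and on all 3 non-ATPase base members, but on 1 of 7 alpha ring members, 1 of 6 ATPases and 1 of 8 lid members.

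The 4 members that were higher without IFN-gamma were also higher with it. How many of all tested genes were higher in both comparisons was not counted, so this repeat has no background beside it. PSMB4 had 6522, 6505 and 6338 normalized counts in A197-270 cells with IFN-gamma, against 4753, 5011 and 4917 in vector cells with IFN-gamma, a log2 fold change of 0.40 ± 0.04 (SE, adjusted p = 8.13e-06 by limma). For PSMB2 the values were 7341, 6817 and 7068 in A197-270 cells with IFN-gamma, against 6149.8, 6287 and 6099.7 in vector cells with IFN-gamma, a log2 fold change of 0.19 ± 0.03 (SE, adjusted p = 0.000717 by limma). Both genes had separate groups. PSMC1 had 4082, 4056 and 4115 in A197-270 cells with IFN-gamma, against 3175, 3123 and 3256 in vector cells with IFN-gamma, a log2 fold change of 0.36 ± 0.03 (SE, adjusted p = 3.65e-06 by limma). The opposite-strand gene NRDE2 ran the other way, with 1701, 1714 and 1883 against 1952, 2024 and 2084 in the same groups. PSMD2 had 6711, 6800.3 and 7008 in A197-270 cells with IFN-gamma, against 5355, 5405 and 5481 in vector cells with IFN-gamma, a log2 fold change of 0.34 ± 0.04 (SE, adjusted p = 2.45e-05 by limma). For PSMB4, PSMC1 and PSMD2, the lowest A197-270 library of this comparison was above the highest vector library of all 6.

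The other 2 non-ATPase base members rose as well. PSMD1 (ENSG00000173692.12, chromosome 2, 231056864 to 231172827, plus strand), the second scaffold of the base, had 6891, 6728 and 6649.7 normalized counts in A197-270 cells with IFN-gamma, against 5755, 6119 and 5787 in vector cells with IFN-gamma, a log2 fold change of 0.20 ± 0.04 (SE, adjusted p = 0.000843 by limma). PSMD4 (ENSG00000159352.15, chromosome 1, 151254703 to 151267479, plus strand), a ubiquitin receptor counted here with the base, had 5892, 5896 and 5693 in A197-270 cells with IFN-gamma, against 5041, 5016 and 4868 in vector cells with IFN-gamma, a log2 fold change of 0.23 ± 0.04 (SE, adjusted p = 0.000651 by limma). In both cases the 3 vector libraries with IFN-gamma were the lowest of all 12, so the difference coincided with low values in that group. Without IFN-gamma the same contrast gave log2 fold changes of 0.09 for PSMD1 and 0.08 for PSMD4, which did not pass (adjusted p = 0.0888 and 0.152, limma).

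In the core, PSMB1 (ENSG00000008018.8, chromosome 6, 170535117 to 170553341, minus strand), a beta ring subunit without a proteolytic site, had 7798, 7714 and 7462 normalized counts in A197-270 cells with IFN-gamma, against 6364, 6805 and 6527 in vector cells with IFN-gamma, a log2 fold change of 0.22 ± 0.04 (SE, adjusted p = 0.000395 by limma). The alpha ring subunit PSMA1 (ENSG00000129084.17, chromosome 11, 14504874 to 14643635, minus strand) had 7514, 7118 and 6639 in A197-270 cells with IFN-gamma, against 5812, 6364 and 6365 in vector cells with IFN-gamma, a log2 fold change of 0.20 ± 0.05 (SE, adjusted p = 0.00836 by limma). Its groups were separate, but the call was lost with the libraries scaled to equal totals (0.11 with an adjusted p of 0.0741). In the lid, PSMD13 (ENSG00000185627.17, chromosome 11, 236546 to 252984, plus strand) had 3821, 3602 and 3495 in A197-270 cells with IFN-gamma, against 2963, 3141 and 3144 in vector cells with IFN-gamma, a log2 fold change of 0.24 ± 0.05 (SE, adjusted p = 0.00136 by limma). The 2 members called lower changed less: the ATPase PSMC4 had a log2 fold change of -0.16 ± 0.05 (SE, adjusted p = 0.0131 by limma) and the lid subunit PSMD11, which links the lid to the core, one of -0.13 ± 0.03 (SE, adjusted p = 0.0102 by limma). Without vector with IFN-gamma replicate 8 PSMC4 lost its call (-0.14 with an adjusted p of 0.0579), and the other 10 calls held in each fit without 1 library.

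**Figure D2:**
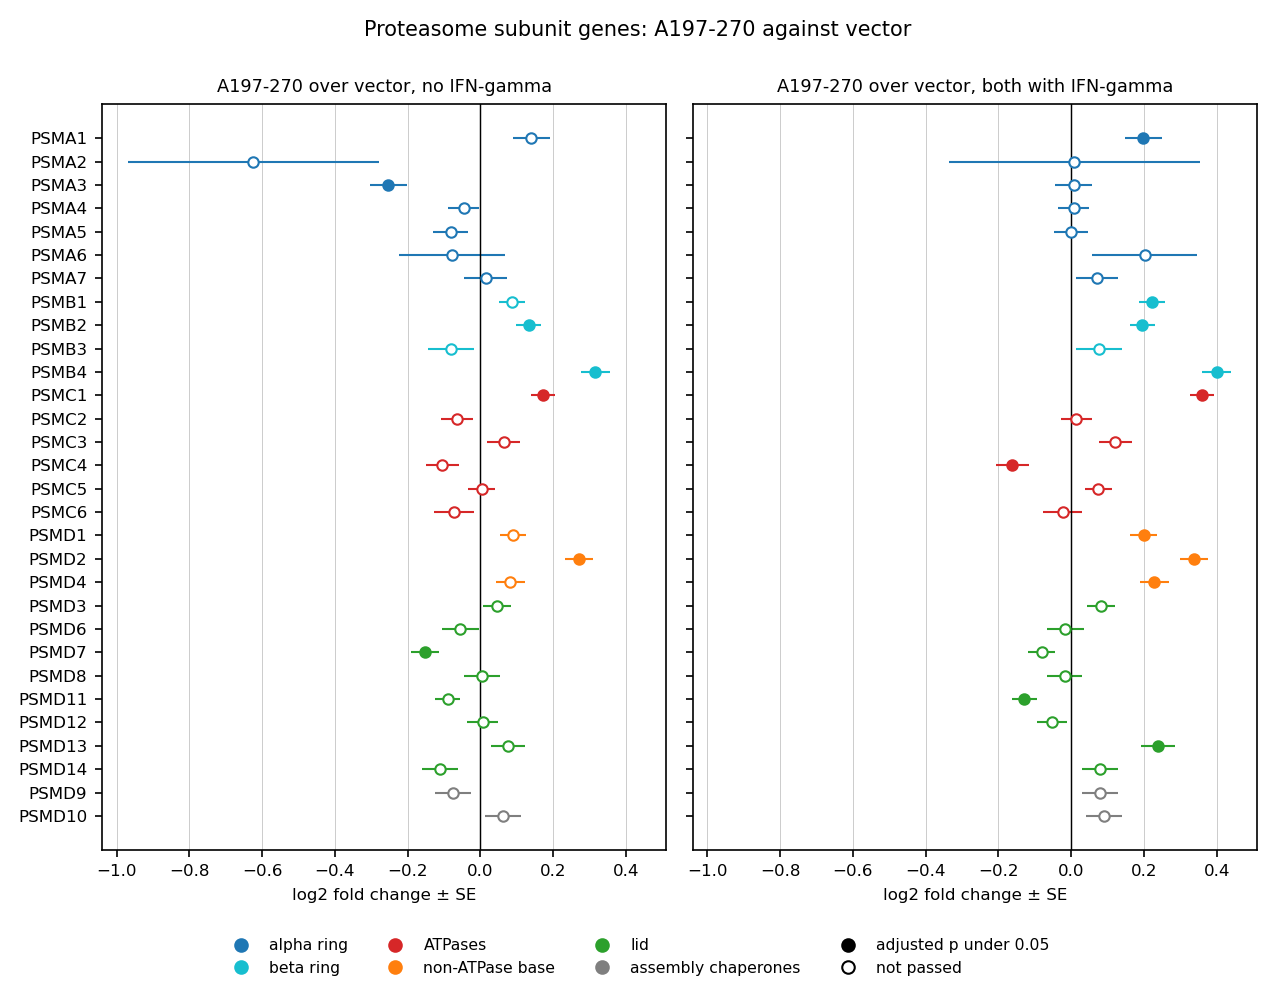
Log2 fold change of each of the 30 tested members with its standard error for A197-270 over vector without IFN-gamma (left) and with IFN-gamma in both groups (right), coloured by class, filled where the adjusted p is under 0.05. PSMB4, PSMB2, PSMC1 and PSMD2 are filled to the right of 0 in both panels, and the wide bar of PSMA2 is that of its own row without AC010132.3.

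The third comparison asks what IFN-gamma did in A197-270 cells. It raised 3 of the 30 tested members, all in the alpha ring (PSMA3, PSMA4 and PSMA5), and 27 did not pass, against 4.19% of all tested genes called higher. No member was called lower by limma or by edgeR's quasi-likelihood test, DESeq2 called 1 (PSMD2), and 3% of all tested genes were lower by limma (7.19% in either direction). Over all genes, edgeR called 455 of 14049 lower and DESeq2 called 624 of 14033 lower. At an unadjusted p under 0.05, 8 members differed in either direction, against 20.9% of all tested genes. The median log2 fold change of the 7 tested alpha ring members was 0.16 with the read-through genes summed, against 0.35 on their own rows, where the median is the row of PSMA2 alone. It was 0.04 for the beta ring, -0.01 for the ATPases, -0.08 for the non-ATPase base and -0.02 for the lid, against -0.01 for all tested genes.

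PSMA3 had 6399, 6046 and 5717 normalized counts in A197-270 cells with IFN-gamma, against 4048, 4204 and 4059 in A197-270 cells without it, a log2 fold change of 0.56 ± 0.05 (SE, adjusted p = 2.71e-06 by limma). This 1.47-fold rise was the largest of any called member in the 4 comparisons between groups. PSMA5 (ENSG00000143106.12, chromosome 1, 109399031 to 109426427, minus strand), another alpha ring subunit, had 6873, 6278 and 6109 in A197-270 cells with IFN-gamma, against 5061, 4848 and 4953 without it, a log2 fold change of 0.37 ± 0.05 (SE, adjusted p = 0.000109 by limma). For both genes every library with IFN-gamma was above every one without it. PSMA4 (ENSG00000041357.15, chromosome 15, 78540405 to 78552419, plus strand) had 11512, 11374 and 10813 in A197-270 cells with IFN-gamma, against 10086, 10382 and 9597 without it, a log2 fold change of 0.16 ± 0.04 (SE, adjusted p = 0.0319 by limma). The PSMA4 call was lost in the fit of only the 6 libraries compared (adjusted p = 0.0567 by limma) and in 4 of the 6 fits without 1 library, those without A197-270 replicate 4 (adjusted p = 0.0852) or 6 (0.129) and without A197-270 with IFN-gamma replicate 10 (0.11) or 11 (0.106), all by limma.

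PSMA6, once its reads were summed with those of the read-through gene, was a further alpha ring gene higher with IFN-gamma. The log2 fold change of the sum was 0.33 with an adjusted p of 0.00356 (limma) in A197-270 cells and 0.44 with an adjusted p of 0.000312 in vector cells. The row of PSMA6 alone gave 0.36 ± 0.14 (SE, adjusted p = 0.171 by limma) and 0.08 ± 0.14 (SE, adjusted p = 0.765 by limma) in the same cells. Without vector with IFN-gamma replicate 9 its own row was called in vector cells too (0.33 with an adjusted p of 0.00551). Summing was chosen after the values were seen.

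The fourth comparison is IFN-gamma against none in vector cells. PSMA3 and PSMA5 were the 2 members called higher, 9 were lower (PSMB1, PSMC1, PSMC3, PSMC5, PSMD1, PSMD2, PSMD4, PSMD13 and PSMD14) and 19 did not pass. Over all tested genes, 7.32% were called higher and 9.79% lower (17.1% in either direction). The lower calls took 6 of 9 base members, all 3 of its non-ATPase members among them, 2 of 8 lid members and 1 of 11 core members. The median log2 fold change was -0.16 for the base and -0.06 for the lid, against -0.01 for all tested genes. For the alpha ring it was 0.11 with the read-through genes summed and 0.08 on their own rows, where the median is the row of PSMA6 alone.

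PSMA3 had 5597, 6463 and 6029 normalized counts in vector cells with IFN-gamma, against 4842, 4933 and 4892 in vector cells without it, a log2 fold change of 0.30 ± 0.05 (SE, adjusted p = 0.00136 by limma). PSMA5 had 6148, 6447 and 6666 in vector cells with IFN-gamma, against 5393, 5289 and 5054 without it, a log2 fold change of 0.29 ± 0.05 (SE, adjusted p = 0.000958 by limma). The groups were separate for both genes. Between the constructs under IFN-gamma, the log2 difference in PSMA3 was 0.01 ± 0.05 (SE, adjusted p = 0.935 by limma). PSMA4 had a log2 fold change of 0.11 ± 0.04 (SE, adjusted p = 0.0885 by limma) in vector cells and passed the test when libraries were scaled to equal totals (0.15 with an adjusted p of 0.0219).

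Among the lower members, PSMC1 had 3175, 3123 and 3256 normalized counts in vector cells with IFN-gamma, against 3745, 3753 and 3762 without it, a log2 fold change of -0.24 ± 0.03 (SE, adjusted p = 0.000279 by limma). PSMD4 had 5041, 5016 and 4868 in vector cells with IFN-gamma, against 5955, 5836 and 5436 without it, a log2 fold change of -0.21 ± 0.04 (SE, adjusted p = 0.00331 by limma). PSMC1 and PSMD4 had separate groups, as did the 2 scaffolds. NRDE2, on the opposite strand to PSMC1, ran the other way. It had 1952, 2024 and 2084 with IFN-gamma, against 1782, 1829 and 1905 without it. PSMD1 had 5755, 6119 and 5787 with IFN-gamma, against 6831, 6758 and 6597 without it, a log2 fold change of -0.19 ± 0.04 (SE, adjusted p = 0.00257 by limma). PSMD2 had 5355, 5405 and 5481 with IFN-gamma, against 6397, 6253 and 5918 without it, a log2 fold change of -0.19 ± 0.04 (SE, adjusted p = 0.00431 by limma). PSMD14 (ENSG00000115233.11, chromosome 2, 161308038 to 161411717, plus strand), the lid's deubiquitinating enzyme, had 4142, 4409 and 4196 in vector cells with IFN-gamma, against 4966, 4898 and 4572 without it, a log2 fold change of -0.18 ± 0.05 (SE, adjusted p = 0.0226 by limma).

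The calls of PSMC1, PSMD1, PSMD2 and PSMD4 held in each fit without 1 library and with equal totals. The other 5 were lost with equal totals, with adjusted p-values of 0.103 for PSMB1, 0.109 for PSMC3, 0.0952 for PSMC5, 0.0559 for PSMD13 and 0.0701 for PSMD14 (limma). They also depended on single libraries. Leaving out 1 library at a time, PSMC3 missed the threshold in all 6 fits (adjusted p = 0.0564 to 0.0924). PSMB1 missed it without vector replicate 1 or 2 or vector with IFN-gamma replicate 7 or 9 (up to 0.105), and also in the fit of only the 6 libraries compared (0.0554). PSMD14 missed it without the same 4 libraries (up to 0.0913). PSMC5 missed it without vector replicate 1 or 2 or vector with IFN-gamma replicate 7 (up to 0.0926), and PSMD13 without vector replicate 2 or vector with IFN-gamma replicate 7 (up to 0.0798). Over these fits 4 to 9 members were lower, counting PSMB4, which was called without vector replicate 3 (0.0499), and PSMD9, called without vector with IFN-gamma replicate 8 (0.0496). Of all 14049 tested genes, 801 to 1388 were lower over the same fits. In A197-270 cells the 9 genes had log2 fold changes for IFN-gamma of -0.13 to 0.01, and none passed.

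**Figure D3:**
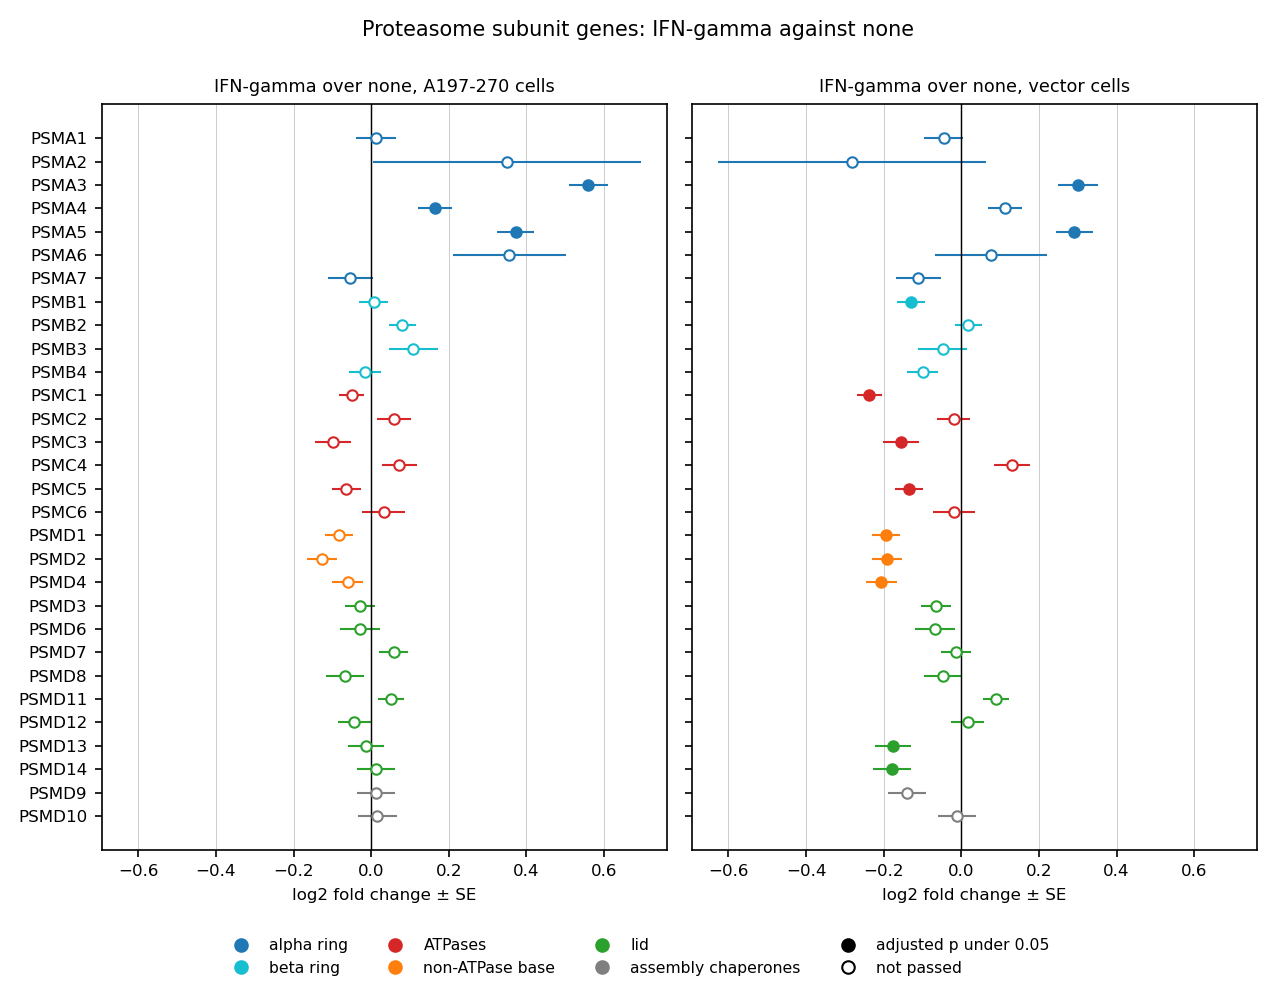
Log2 fold change of each tested member with its standard error for IFN-gamma over none in A197-270 cells (left) and in vector cells (right), coloured by class, filled where the adjusted p is under 0.05. PSMA3 and PSMA5 are filled to the right of 0 in both panels, and the 3 non-ATPase base members are filled to the left of 0 in vector cells.

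Of the 9 members lower with IFN-gamma in vector cells, 6 (PSMB1, PSMC1, PSMD1, PSMD2, PSMD4 and PSMD13) were also higher with A197-270 under IFN-gamma. The share of all tested genes with both calls was not counted, so this overlap cannot be set against a background. The vector libraries with IFN-gamma enter both comparisons, so low values there move both. For PSMD13 the values were 3821, 3602 and 3495 in A197-270 cells with IFN-gamma, 3875, 3514 and 3627 in A197-270 cells, 2963, 3141 and 3144 in vector cells with IFN-gamma and 3457, 3563 and 3426 in vector cells. For PSMB1 they were 7798, 7714 and 7462 in A197-270 cells with IFN-gamma, 7715, 7554 and 7601 in A197-270 cells, 6364, 6805 and 6527 in vector cells with IFN-gamma and 7370.1, 7194 and 6979 in vector cells. In both genes the 3 vector libraries with IFN-gamma were the lowest of the 12.

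**Figure D4:**
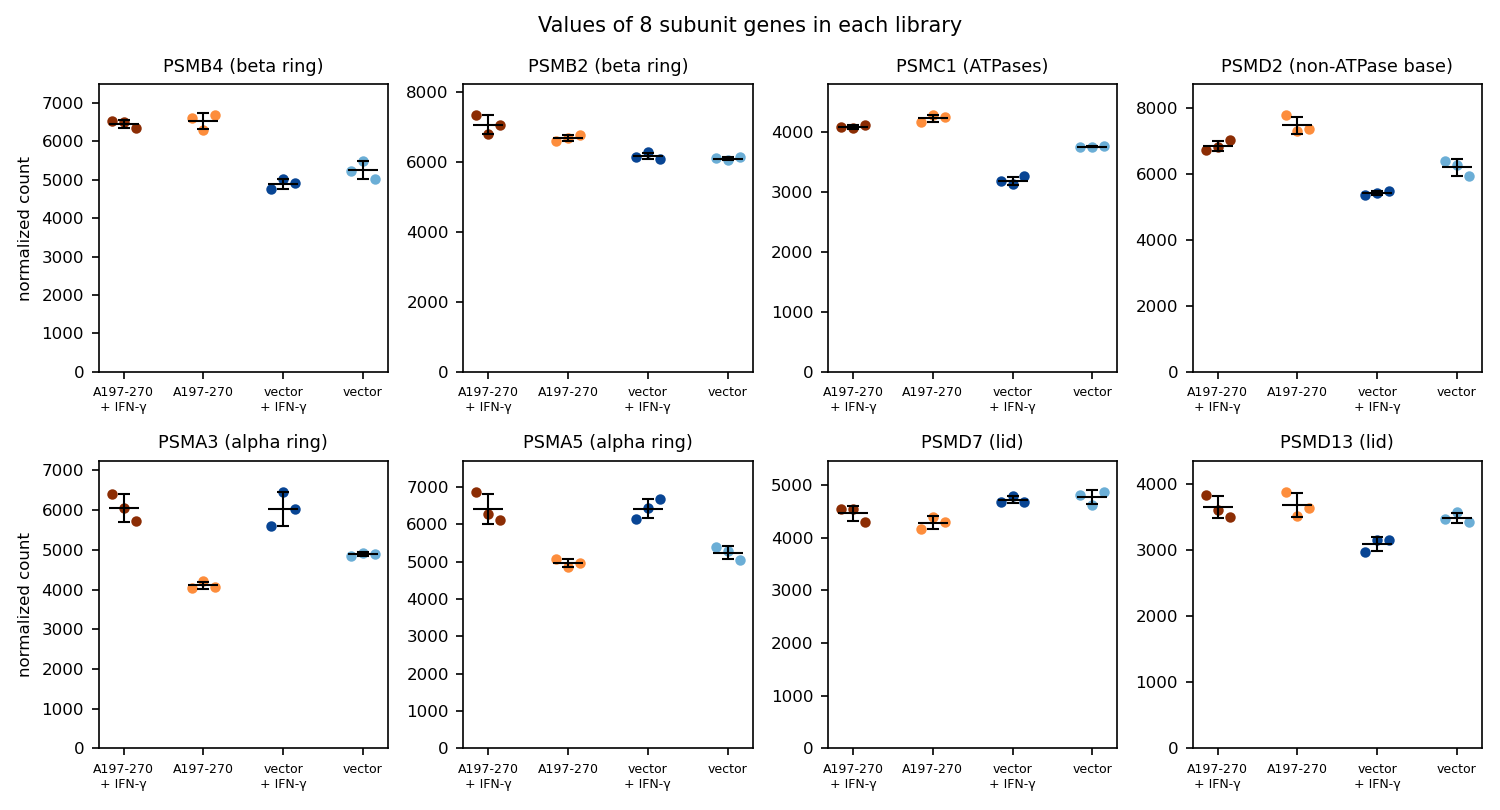
Normalized counts of 8 members in each library (points, 3 per group) with the group mean and SD (black), in A197-270 + IFN-gamma, A197-270, vector + IFN-gamma and vector cells from left to right; the axes start at 0. PSMB4 lies at 6291 to 6681 in all A197-270 libraries and at 4753 to 5493 in all vector libraries, and PSMA3 lies at 5597 to 6463 in all libraries with IFN-gamma and at 4048 to 4933 in those without.

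Whether the IFN-gamma response differed between the constructs was tested as an interaction, the response in A197-270 cells minus that in vector cells. By limma 0 of the 30 tested members passed, against 0.819% of all tested genes called higher and 0.0783% lower (0.897% in either direction). At an unadjusted p under 0.05, 8 members differed, against 11.9% of all tested genes. edgeR's quasi-likelihood test also called 0 members, and DESeq2 called 2, PSMA3 (adjusted p = 0.0357) and PSMC1 (0.0429). Over all genes, edgeR called 115 of 14049 higher and 10 lower, and DESeq2 called 219 of 12953 higher and 60 lower. By limma the interaction was 0.26 ± 0.07 (SE, adjusted p = 0.152 by limma) for PSMA3 and 0.19 ± 0.05 (SE, adjusted p = 0.095 by limma) for PSMC1 on the log2 scale. The standard errors of the members' interactions had a median of 0.06.

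The count of members in each direction depended on how libraries were scaled. Scaled to equal totals, the median of all tested genes became -0.05 for A197-270 without IFN-gamma and -0.09 with it, and the split of calls over all genes turned to 8.26% higher and 19.5% lower (27.8% in either direction) in the first comparison and to 10.8% higher and 29.7% lower (40.4%) in the second. Of the members, 3 were then higher and 6 lower without IFN-gamma, and 8 higher and 4 lower with it. The members added to the lower side were PSMA5, PSMC4, PSMD11 and PSMD14 without IFN-gamma, and PSMD7 and PSMD12 with it. The members' median log2 fold change turned to -0.05 and -0.01. For IFN-gamma in vector cells equal totals gave 5 members higher and 4 lower, against 10.9% higher and 5.91% lower over all genes (16.8% in either direction). In A197-270 cells equal totals gave the same counts of members, 3 higher and 0 lower, against 4.39% and 2.93% over all genes (7.32% in either direction). In the interaction 0 members passed with equal totals, against 0.747% of all genes higher and 0.164% lower (0.911% in either direction).

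A ratio of classes within a library needs no scaling between libraries. The mean log2 value of the beta ring members minus that of the lid members, set to 0 at the mean of the vector libraries, was 0.21, 0.19 and 0.20 in A197-270 cells with IFN-gamma and 0.18, 0.10 and 0.17 in A197-270 cells. It was -0.01, -0.00 and -0.01 in vector cells with IFN-gamma and 0.01, 0.02 and -0.03 in vector cells. All 6 A197-270 libraries were above all 6 vector libraries. This ratio averages the 4 tested beta ring members, which did not all rise. Without IFN-gamma PSMB3 had a mean of 4450 normalized counts in A197-270 cells and 4698 in vector cells. PSMB1, PSMB2 and PSMB4 had higher means with A197-270. The non-ATPase base over the lid was 0.10 ± 0.04 in A197-270 cells with IFN-gamma, 0.18 ± 0.03 in A197-270 cells, -0.14 ± 0.02 in vector cells with IFN-gamma and 0.00 ± 0.04 in vector cells (mean ± SD of the log2 ratio, n = 3 each). It was higher with A197-270 and lower with IFN-gamma. The alpha ring over the lid, with the read-through genes added in, was 0.22 ± 0.04 in A197-270 cells with IFN-gamma, 0.01 ± 0.03 in A197-270 cells, 0.21 ± 0.05 in vector cells with IFN-gamma and 0.00 ± 0.03 in vector cells. This ratio went with IFN-gamma. In the same order of groups, core over base, summed likewise, was 0.16 ± 0.06, -0.03 ± 0.02, 0.19 ± 0.04 and 0.00 ± 0.02. For core over base the constructs overlapped both with and without IFN-gamma. Core over lid, also summed, was 0.22 ± 0.03, 0.06 ± 0.03, 0.13 ± 0.03 and 0.00 ± 0.02. Base over lid was 0.06 ± 0.04, 0.08 ± 0.02, -0.06 ± 0.01 and 0.00 ± 0.01. No test is given for these ratios.

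**Figure D5:**
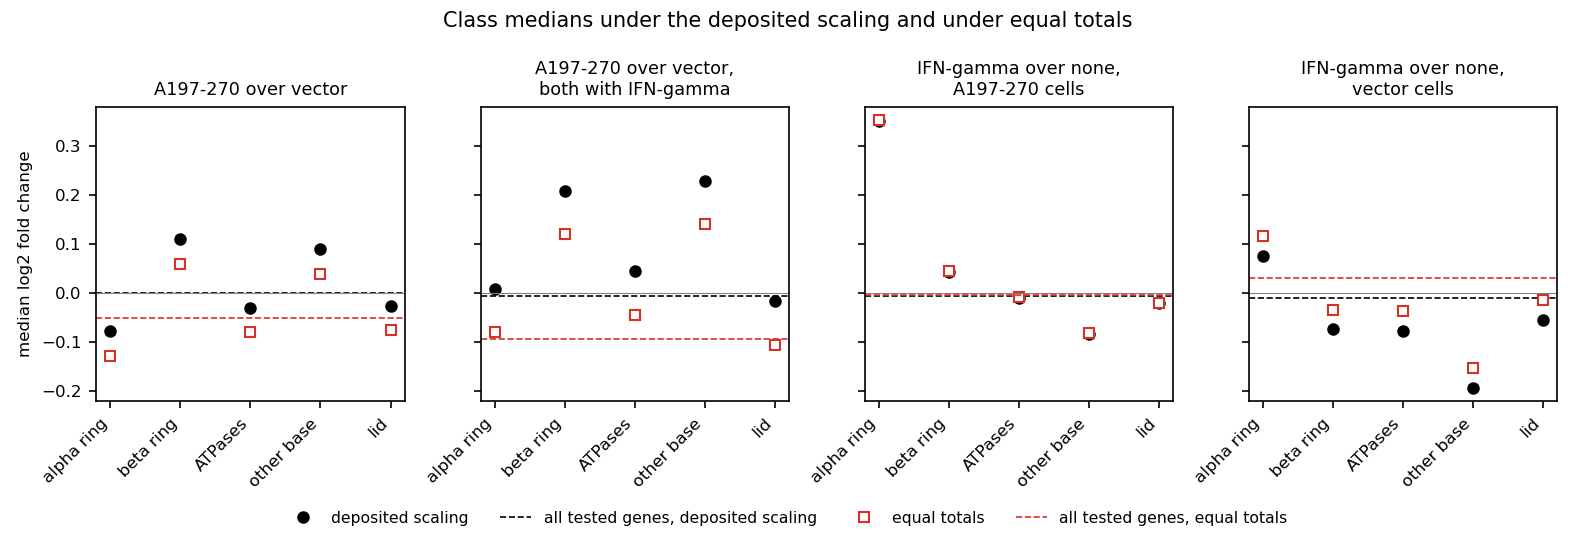
Median log2 fold change of the tested members of each class in the 4 comparisons under the deposited scaling (filled circles) and with libraries scaled to equal totals (open squares), with the median of all tested genes as dashed lines in the same colours. Equal totals shifts all classes down by about the same amount in the A197-270 comparisons and up in vector cells with IFN-gamma. The alpha ring points use the genes' own rows, with medians of 0.35 and 0.08 for IFN-gamma in A197-270 and vector cells, against 0.16 and 0.11 with the read-through genes summed.

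Over the 4 comparisons between groups, 18 of the 30 tested members were called in at least 1 and 12 in none, beside 45.5% of all tested genes called in at least 1. The 12 were PSMA2, PSMA6 and PSMA7 of the alpha ring, PSMB3 of the beta ring, the ATPases PSMC2 and PSMC6, the lid subunits PSMD3, PSMD6, PSMD8 and PSMD12, and the 2 tested assembly chaperones PSMD9 and PSMD10. PSMA2 and PSMA6 are the 2 genes whose own rows varied most between libraries of a group. PSMD9 had 1386, 1295 and 1316 normalized counts in A197-270 cells with IFN-gamma, 1344, 1329 and 1287 in A197-270 cells, 1209.6, 1317 and 1259 in vector cells with IFN-gamma and 1353, 1422 and 1397 in vector cells. Its vector libraries with IFN-gamma were below those without it, but the log2 fold change of -0.14 ± 0.05 (SE, adjusted p = 0.0631 by limma) did not pass. PSMD10 had 6487, 6227 and 5651 in A197-270 cells with IFN-gamma, 5845, 6056 and 6236 in A197-270 cells, 5634, 5903 and 5699 in vector cells with IFN-gamma and 5579.6, 6004 and 5797 in vector cells, and its groups overlapped in each comparison.

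Other genes of the pathway were called in both directions. Of 32 other proteasome genes tested, 4 were higher and 7 lower with A197-270 without IFN-gamma, where 12.5% and 12.6% of all tested genes were. Under IFN-gamma 5 were higher and 3 lower, against 18.6% and 16.2% of all genes. IFN-gamma raised 5 and lowered 1 in A197-270 cells, against 4.19% and 3% of all genes, and raised 6 and lowered 5 in vector cells, against 7.32% and 9.79%. The catalytic beta subunit PSMB7, which carries the trypsin-like site, had 4401, 4373 and 4347 normalized counts in A197-270 cells with IFN-gamma, 4956, 4529.7 and 4598 in A197-270 cells, 2979, 3266 and 3063 in vector cells with IFN-gamma and 4094, 4022 and 3533 in vector cells. It was higher with A197-270 by 0.28 (log2; limma adjusted p = 0.00246) without IFN-gamma and by 0.50 (1.94e-05) with it, and lower with IFN-gamma in vector cells (-0.32, 0.00151). KIAA0368, a proteasome adaptor and scaffold protein, had 5494, 5742 and 6058 in A197-270 cells with IFN-gamma, 7069, 7292 and 6663 in A197-270 cells, 3685, 3658 and 3431 in vector cells with IFN-gamma and 4816, 4675 and 4411 in vector cells. Its log2 fold changes with A197-270 were 0.60 without IFN-gamma (1.01e-06) and 0.68 with it (5.07e-07), larger rises than those of any called member in the same comparisons. KIAA0368 was lower with IFN-gamma in A197-270 cells (log2 -0.28, limma adjusted p = 0.0024) and in vector cells (-0.37, 0.000235). The other catalytic subunits were PSMB5, higher with A197-270 under IFN-gamma (log2 0.19 ± 0.06 SE, adjusted p = 0.0251 by limma, not passed without A197-270 with IFN-gamma replicate 10 at 0.082 or vector with IFN-gamma replicate 7 at 0.117), and PSMB6, which passed in no comparison. The PSMB5 call was also lost with equal totals (log2 0.10, adjusted p = 0.168 by limma).

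The IFN-gamma-induced parts of the system gave the strongest values. The activator gene PSME1 had 5577, 5431 and 4803 normalized counts in A197-270 cells with IFN-gamma, 1769, 1722 and 1732 in A197-270 cells, 5419.5, 5902 and 5631 in vector cells with IFN-gamma and 3197, 3095 and 3081 in vector cells. It was lower with A197-270 without IFN-gamma (log2 -0.84 ± 0.05 SE, adjusted p = 2.67e-08 by limma), and the same contrast under IFN-gamma was -0.10 ± 0.05 (SE, adjusted p = 0.141 by limma). Its IFN-gamma response was larger in A197-270 cells than in vector cells by 0.74 ± 0.07 (SE, adjusted p = 1.68e-05 by limma) on the log2 scale. PSME2 had an interaction of 0.49 ± 0.09 (SE, adjusted p = 0.00952 by limma) and the immunoproteasome subunit PSMB9 one of 1.82 ± 0.20 (SE, adjusted p = 4.74e-05 by limma). PSMB9 had 1593, 1507 and 1389 in A197-270 cells with IFN-gamma, 25.3, 38.5 and 25.2 in A197-270 cells, 1872, 1933 and 1878 in vector cells with IFN-gamma and 122, 151 and 129 in vector cells. Without IFN-gamma all 3 genes were lower in A197-270 cells. Under IFN-gamma none of them passed limma's test between the constructs, but other settings called 2 of them lower with A197-270. PSMB9 was called by edgeR's quasi-likelihood test (-0.35 with an adjusted p of 0.0066), by DESeq2 (adjusted p = 9.78e-05), and by limma with only the 6 libraries compared (0.00173) or equal totals (0.0227). PSME1 was called by limma with equal totals (0.00769) and with quantile normalization (0.048). PSME4, another activator, was lower with A197-270 under IFN-gamma (log2 -0.15 ± 0.04 SE, adjusted p = 0.0056 by limma). It was also lower without IFN-gamma (log2 -0.12, adjusted p = 0.0315 by limma), a call lost in 4 of the 6 fits without 1 library. PSMB8 and PSMB10 were raised by IFN-gamma with either construct, at 57.4 to 89.5 normalized counts with it for PSMB8 and 182 to 299 for PSMB10. The PSMB10 call in A197-270 cells was lost without A197-270 replicate 4 (limma adjusted p = 0.0505).

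In the axis that controls the family, NFE2L1 had 9918, 10287 and 9943 normalized counts in A197-270 cells with IFN-gamma, 9589.9, 9405 and 9839.9 in A197-270 cells, 11477, 12154 and 11788 in vector cells with IFN-gamma and 10794, 11282 and 11343 in vector cells. It was lower with A197-270 both without IFN-gamma (log2 -0.21 ± 0.04 SE, adjusted p = 0.000709 by limma) and with it (log2 -0.23 ± 0.04 SE, adjusted p = 0.000267 by limma). VCP, the ATPase that draws NFE2L1 out of the endoplasmic reticulum membrane, was higher with A197-270 without IFN-gamma (log2 0.11 ± 0.03 SE, adjusted p = 0.0288 by limma) and with it (log2 0.14 ± 0.03 SE, adjusted p = 0.00751 by limma). Both VCP calls were lost with equal totals (0.131 and 0.198, limma) and with quantile normalization (0.0941 and 0.111, limma). The first was also lost in the fit of only the 6 libraries compared (0.0573, limma). Leaving out A197-270 replicate 4 or 6, or vector replicate 1 or 2, lost the first call too. DDI2, the protease that cuts NFE2L1, was lower with A197-270 without IFN-gamma (log2 -0.15 ± 0.04 SE, adjusted p = 0.00929 by limma). NFE2L2, a related factor, was lower with A197-270 under IFN-gamma (log2 -0.14 ± 0.05 SE, adjusted p = 0.0408 by limma), a call lost without A197-270 with IFN-gamma replicate 10 or 12 or vector with IFN-gamma replicate 8 or 9 (adjusted p up to 0.152). Of the assembly factors of the core, PSMG3 was lower with A197-270 without IFN-gamma (log2 -0.22 ± 0.05 SE, adjusted p = 0.00611 by limma) and PSMG1 lower with IFN-gamma in vector cells (log2 -0.25 ± 0.06 SE, adjusted p = 0.00838 by limma). POMP, PSMG2 and PSMG4 passed in no comparison, nor did the regulatory particle subunits ADRM1 and SEM1.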

How the data were processed

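RNA from 12 HEK293 libraries in 4 groups of 3 was measured. The deposited values are a signal: gene counts that the authors divided by a size factor per library, so that each value is a whole multiple of what 1 read is worth (100% of values within 0.001). The build hg38 and the tools DESeq2 1.22.1, StringTie 1.3.3b and HISAT2 2.1.0 are listed in the submitters' processing notes, with no role given. The sources used here do not give the annotation release, the strand setting or the treatment of reads that map to several places, so processed pseudogenes could share reads with members.

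The main test was limma 3.58.1 with a trended prior on log2(value + 1), fitted to all 12 libraries and to the 14049 of 19836 genes with a mean of at least 10, two-sided, with Benjamini-Hochberg adjustment and a threshold of 0.05 (R 4.3.3). The fit was also run on simulated data in which few genes were changed, and no result here rests on that run. Recovered reads were tested with edgeR 4.0.16 and DESeq2 1.42.0 as alternatives. Further alternatives were equal totals, quantile normalization, a pseudocount of 0.1, no filter, the 6 libraries compared alone, each library left out and, chosen after seeing the data, read-through genes summed with the members they overlap. Gene positions are those of GENCODE 29 on GRCh38 (19804 of 19836 IDs matched). By the rule for named genes, values of every library are given for members called the same way in both A197-270 comparisons or in opposite directions anywhere, for the called member of each class with the largest change in each comparison, for members called in the interaction and for members near 0. Of each other pathway list, up to 3 called genes with the largest change are named. A result that this rule would name is not reported here. Values of PSMA2, PSMA4, PSMA5, PSMA6, PSMD9 and PSMD10, and further members or pathway genes outside this rule, were added after their values were seen. The members and lists were chosen with earlier results of these data known.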

Additional observations from a re-analysis of the deposited data

How the results depend on the processing

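Over the 30 tested members, no called value changed sign: of 2250 values under the alternatives, 2189 stayed on the same side of the threshold, 33 calls were lost and 28 gained. Of the lost calls, 24 came from leaving out 1 library, 7 from equal totals and 2 from fitting only the 6 libraries compared. With equal totals, 6 members were lower with A197-270 without IFN-gamma and 4 with it. The member medians were -0.045 and -0.011, against -0.050 and -0.093 over all tested genes. For IFN-gamma in vector cells, equal totals gave 5 members higher and 4 lower with a median of -0.016, against 0.031 over all tested genes. In that comparison quantile normalization gave 4 higher. Quantile normalization also added PSMD9 to the lower side (log2 -0.15, adjusted p = 0.0478 by limma). It called 1086 of all 14049 tested genes higher and 1430 lower in that comparison. The median interaction of the members was 0.071 in the main fit, against 0.013 over all tested genes. With equal totals it was 0.032, against -0.026. DESeq2 called 1 member lower with IFN-gamma in A197-270 cells and 2 with a larger response there. Over all genes it called 624 of 14033 lower and 219 of 12953 with a larger response. Without 1 library at a time, 1 to 2 members were lower with A197-270 under IFN-gamma (median 0.048 to 0.128), 4 to 9 were lower with IFN-gamma in vector cells, and the median interaction was 0.058 to 0.105. Over all 14049 tested genes, these fits gave 1622 to 2011 lower with A197-270 under IFN-gamma (median -0.007 to -0.003). They gave 801 to 1388 lower with IFN-gamma in vector cells. Their median interaction over all tested genes was 0.010 to 0.017. No paired analysis was possible because every library has a replicate number of its own. With 3 libraries a group, the standard errors (median 0.046, log2) limit what could be called.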
